A study of Sus scrofa with 8 samples.

Results

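Chaperones of the endoplasmic reticulum (ER) and regulators of the unfolded protein response were examined in backfat, the subcutaneous fat of the back, from 2 breeds of pig. The rule named 10 genes and took every probe set whose annotation gave exactly 1 of these symbols. It found 20 probe sets for 9 genes among 23999 probe sets without controls. For P4HB, which encodes a protein disulfide isomerase, no probe set met the rule, and that gene was not analysed here.

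Total RNA from 4 KNP and 4 YS backfat samples was labelled with biotin and hybridised, 1 sample to an array, to 1-colour Affymetrix arrays designed for the pig (GeneChip Porcine). YS stands for Yorkshire in the label of 1 sample, and KNP is not spelled out. KNP pigs were 7 months old and YS pigs 6 months old, and the pigs were kept in identical conditions, so breed and age cannot be told apart. The labels name no treatment and no sex, and leave unsaid whether the 8 samples are 8 animals. What the SDs and p-values measure is therefore the spread between these samples, which may be technical.

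The ER folds the proteins that a cell secretes or places in its membranes. HSPA5 and HSP90B1 are its Hsp70 and Hsp90 chaperones, CALR and CANX are the lectins that hold newly made glycoproteins, and PDIA3 and PDIA4 form and rearrange disulfide bonds. When unfolded proteins accumulate, sensors in the ER membrane start the unfolded protein response. ATF4 is translated when initiation is slowed by the kinase PERK, XBP1 messenger RNA is spliced by IRE1 to give an active transcription factor, and DDIT3 (CHOP) is a target of ATF4 linked to cell death under lasting stress. Adipocytes secrete adipokines and lipases through this compartment. The array measured total messenger RNA, so neither XBP1 splicing nor ATF4 translation could be read from it.

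The arrays differed in a way that breed did not explain. The difference between the 3′ and 5′ probe sets of the actin, GAPDH and elongation factor controls, a sign of how intact the RNA was when copied, ranged from 0.79 to 5.88 on the log2 scale. It was largest on KNP replicate 1 (5.88), KNP replicate 2 (5.18) and YS replicate 4 (3.04), and lowest on KNP replicates 3 (0.79) and 4 (0.91). Of the adipocyte markers, 6 of 6 were above the no-target level on all arrays. ADIPOQ ranged from 7.43 on KNP replicate 1, where that level was 6.72, to 12.42 on KNP replicate 3. It was also low on KNP replicate 2 (8.80) and YS replicate 4 (9.18). The other adipocyte markers read at least 10.28 on each array and did not all share that order. LIPE was lowest on YS replicate 4 (11.40) and KNP replicate 1 (11.49), and PPARG on KNP replicate 2 (10.87). LEP (12.33) and FABP4 (15.78) were highest on KNP replicate 1, and CFD on KNP replicate 2 (12.97). The no-target level is the 95th percentile of 23 control probe sets that match no pig transcript. It was highest on YS replicate 4, at 7.47 on the log2 scale, against 5.82 to 7.04 on the others. Median signal was highest on YS replicate 4 (263.0) and KNP replicate 1 (223.7), against 158.2 to 174.2 on the other arrays. The part of these differences in the levels of single genes was not tested. KNP replicate 2 also carried skeletal muscle RNA: the log2 of the summed signal of 8 muscle markers was 15.82 there and lay between 7.68 and 9.52 on the other 7 arrays, and 0 of the 8 markers were above the no-target level on all arrays. Of 3 plasma cell and B cell markers, CD79B exceeded the no-target controls in 1 KNP and 1 YS sample and TNFRSF17 on none. JCHAIN, the joining chain of secreted antibodies, exceeded them on all 8, at 8.30 in KNP and 7.97 in YS on the log2 scale. Markers of fibroblasts were lower in KNP for 6 of 6 genes, by a median of -0.59 on the log2 scale, and 0 passed the test. In tissue samples, fewer cells of a type and less RNA per cell cannot be told apart.

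No gene of the set passed the test between KNP and YS. Log2 values here are log2(signal + 16), and differences are KNP minus YS. Of the 20 probe sets, 18 passed a filter that left out the dimmest 25%, and of these 0 passed an adjusted p of 0.05 in limma with Benjamini-Hochberg adjustment over 17999 probe sets, where the smallest adjusted p among the 18 was 0.9998. Over all probe sets 0% passed. At an unadjusted p under 0.05 there were also 0 of 18, beside 2.84% of all probe sets (1.49% higher in KNP and 1.35% lower), and the smallest unadjusted p in limma was 0.168. The differences were positive for 9 and negative for 9, beside 49.9% positive over all probe sets. Their median was 0.0071, beside -0.0010 over all probe sets tested, and their median size was 0.11, beside 0.24. The KNP and YS values overlapped for all 20 probe sets, where 1.96% of the probe sets tested did not overlap. For the brightest probe set of each gene, the 95% confidence intervals of the difference reached from -0.91 to 0.88 on the log2 scale, so differences of up to nearly that size could not be told from none with 4 arrays per breed. For 7 of these 9 probe sets, all but those of CANX and PDIA3, the sign turned when a single array was left out. With KNP replicates 1 and 2 and YS replicate 4 set aside, the arrays of largest 3′/5′ difference, the differences ran from -0.22 (HSP90B1) to 0.32 (DDIT3), over 2 KNP and 3 YS arrays and with no test.

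**Figure D1:**
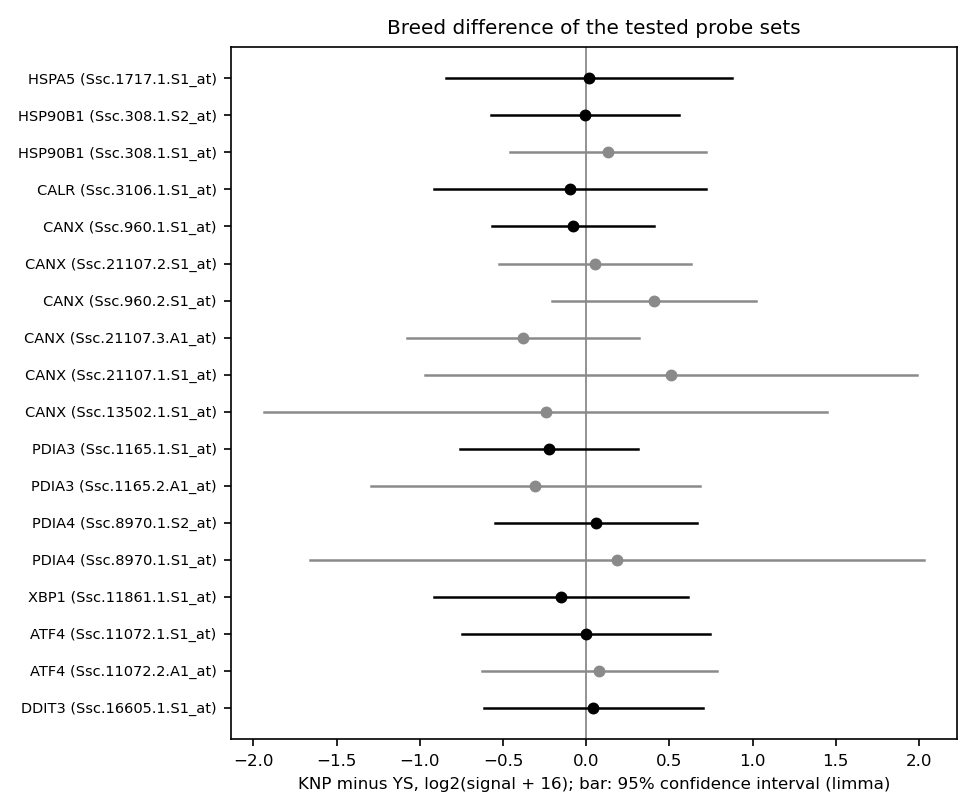
Difference between breeds (KNP minus YS, log2(signal + 16), horizontal axis) for the 18 tested probe sets, with 95% confidence intervals from limma. Black marks the brightest probe set of each gene and grey the others. All 18 intervals contain 0, and the widest belong to the dimmest probe sets of PDIA4 and CANX.

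HSPA5 (BiP), the Hsp70 chaperone that also holds the stress sensors inactive, was read by probe set Ssc.1717.1.S1_at. Its log2 signal was 12.06, 12.85, 13.54 and 12.82 in KNP replicates 1 to 4, and 13.28, 12.85, 13.01 and 12.07 in YS replicates 1 to 4. KNP replicate 1 and YS replicate 4 were low and lay next to each other, and the highest and next highest arrays came from different breeds. The means were 12.82 ± 0.60 and 12.80 ± 0.52 (SD, n = 4), a difference of 0.02 ± 0.38 (SE) with a 95% interval from -0.84 to 0.88. The arrays of both breeds together spanned 1.48 log2 units, or 2.78-fold in signal + 16. The spread lay within each breed.

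HSP90B1 (GRP94), the ER Hsp90 that folds integrins, Toll-like receptors and insulin-like growth factors, varied less. Its brighter probe set, Ssc.308.1.S2_at, read 12.53, 12.35, 12.50 and 11.98 in KNP and 12.51, 12.54, 12.35 and 12.00 in YS. In each breed replicate 4 was the lowest array and the other 3 lay close together. The means were 12.34 ± 0.25 and 12.35 ± 0.25 (SD, n = 4), a difference of -0.0069 with a 95% interval from -0.57 to 0.56. The other probe set of the gene, Ssc.308.1.S1_at, followed it across the 8 arrays (r = 0.84, a description) and differed by 0.13 ± 0.26 (SE).

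The lectin chaperones differed in how steady they were. CALR (calreticulin), the soluble lectin that also stores calcium, read 9.89, 9.72, 9.60 and 8.82 in KNP and 9.32, 9.19, 9.47 and 10.44 in YS (probe set Ssc.3106.1.S1_at). The highest array was YS replicate 4 and the lowest KNP replicate 4, and the breeds overlapped, at 9.51 ± 0.47 and 9.60 ± 0.57 (SD, n = 4). YS replicate 4, where HSPA5 was low, was thus the array where CALR was highest. Without it the CALR difference was 0.18, against -0.10 with all 8 arrays.

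CANX (calnexin), the membrane-bound lectin, had 6 probe sets. The brightest, Ssc.960.1.S1_at, read 12.18, 12.11, 12.37 and 12.15 in KNP and 12.38, 12.39, 12.13 and 12.22 in YS. All 8 values lay within 0.28 log2 units, and 0.27% of the probe sets tested had a smaller SD over the 8 arrays. The means were 12.20 ± 0.12 and 12.28 ± 0.13 (SD, n = 4), with a 95% interval of the difference from -0.56 to 0.41.

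The other CANX probe sets did not follow the brightest one evenly. Ssc.21107.2.S1_at, the next in brightness, averaged 12.06 ± 0.32 (SD) over 4 KNP arrays and 12.01 ± 0.20 over 4 YS arrays and had an r of 0.64 with it over 8 arrays. Ssc.960.2.S1_at gave the smallest p of the set: KNP averaged 8.58 ± 0.20 (SD, n = 4) and YS 8.17 ± 0.40, which differ by 0.41 ± 0.27 (SE) and did not pass the test (unadjusted p = 0.168, adjusted p = 0.9998, limma). It read 8.51, 8.34, 8.65 and 8.81 in KNP and 8.66, 8.24, 7.71 and 8.08 in YS, so that YS replicate 1 lay above 3 of the 4 KNP arrays. Ssc.21107.3.A1_at had the opposite sign, at 8.03 ± 0.54 against 8.41 ± 0.18. The dimmer Ssc.21107.1.S1_at and Ssc.13502.1.S1_at spanned 3.20 and 3.39 log2 units over the arrays and had r values of -0.55 and -0.60 with the brightest. Ssc.21107.1.S1_at was highest on KNP replicate 2, at 9.96, the array with muscle RNA. It was next highest on YS replicate 3, at 9.14, where the log2 of the summed muscle marker signal was 7.72. Without KNP replicate 2 its difference was -0.04, against 0.51 with that array. The part of muscle RNA in these values was not tested.

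Among the disulfide isomerases, PDIA3 (ERp57), which works on glycoproteins held by CALR and CANX, had the largest difference of the brightest probe sets. Ssc.1165.1.S1_at read 10.90, 11.00, 11.33 and 11.06 in KNP and 11.14, 11.07, 11.56 and 11.43 in YS. KNP replicate 3 lay among the YS values and the other KNP arrays lay below the lowest of them. The means were 11.07 ± 0.19 and 11.30 ± 0.23 (SD, n = 4), a difference of -0.23 ± 0.24 (SE) that did not pass the test and had a 95% interval from -0.76 to 0.31. A dimmer probe set, Ssc.1165.2.A1_at, was at 7.93 ± 0.46 and 8.24 ± 0.84, with YS replicate 4 highest at 9.46. A PDIA3 probe set that the filter left out, Ssc.10997.1.S1_at, ranged from 4.85 to 7.84 and exceeded that of the no-target controls in 2 KNP and 1 YS samples.

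PDIA4 (ERp72), a larger isomerase with more catalytic domains, gave a signal well above background on its brightest probe set only. Ssc.8970.1.S2_at read 10.51, 10.94, 10.79 and 10.18 in KNP and 10.28, 10.65, 10.90 and 10.36 in YS. The breeds were interleaved, at 10.60 ± 0.33 and 10.55 ± 0.28 (SD, n = 4), and the 95% interval of the difference ran from -0.55 to 0.67. Ssc.8970.1.S1_at ranged from 4.50 to 7.91, and its lowest values fell on YS replicate 4 and KNP replicate 1, at 4.50 and 4.67. Ssc.8970.2.A1_at, left out by the filter, exceeded the no-target controls in 0 KNP samples and 1 YS sample.

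Of the 3 transcription factors, XBP1 had the widest spread in KNP. Its probe set Ssc.11861.1.S1_at read 10.81, 11.57, 12.23 and 12.12 in KNP and 11.78, 11.81, 12.04 and 11.73 in YS. The YS arrays lay close together, and the KNP arrays fell on both sides of them. The means were 11.69 ± 0.65 and 11.84 ± 0.14 (SD, n = 4), a difference of -0.15 ± 0.34 (SE). The 95% interval of that difference ran from -0.91 to 0.61. With the same 3 arrays set aside, the KNP mean was 12.18 and the YS mean 11.88, so that the sign was the opposite (0.30).

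ATF4, the factor that raises amino acid synthesis and antioxidant genes, was at 12.12, 12.76, 13.29 and 12.75 in KNP and 13.15, 12.86, 12.78 and 12.14 in YS on its brightest probe set, Ssc.11072.1.S1_at. As for HSPA5, KNP replicate 3 and YS replicate 1 were the highest arrays and KNP replicate 1 and YS replicate 4 the lowest. The means were 12.73 ± 0.48 and 12.73 ± 0.42 (SD, n = 4), and the 95% interval of the difference ran from -0.75 to 0.74. The dimmer Ssc.11072.2.A1_at was at 7.58 ± 0.54 and 7.50 ± 0.22 and had an r of 0.25 with the brighter over 8 arrays.

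DDIT3 (CHOP) read 9.41, 9.47, 10.38 and 9.60 in KNP and 9.47, 10.03, 9.50 and 9.69 in YS (probe set Ssc.16605.1.S1_at). KNP replicate 3 and YS replicate 2 stood above the other 6 arrays. The means were 9.71 ± 0.45 and 9.67 ± 0.25 (SD, n = 4), a difference of 0.04 ± 0.29 (SE) with a 95% interval from -0.62 to 0.70. Without KNP replicate 3 it was -0.18.

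**Figure D2:**
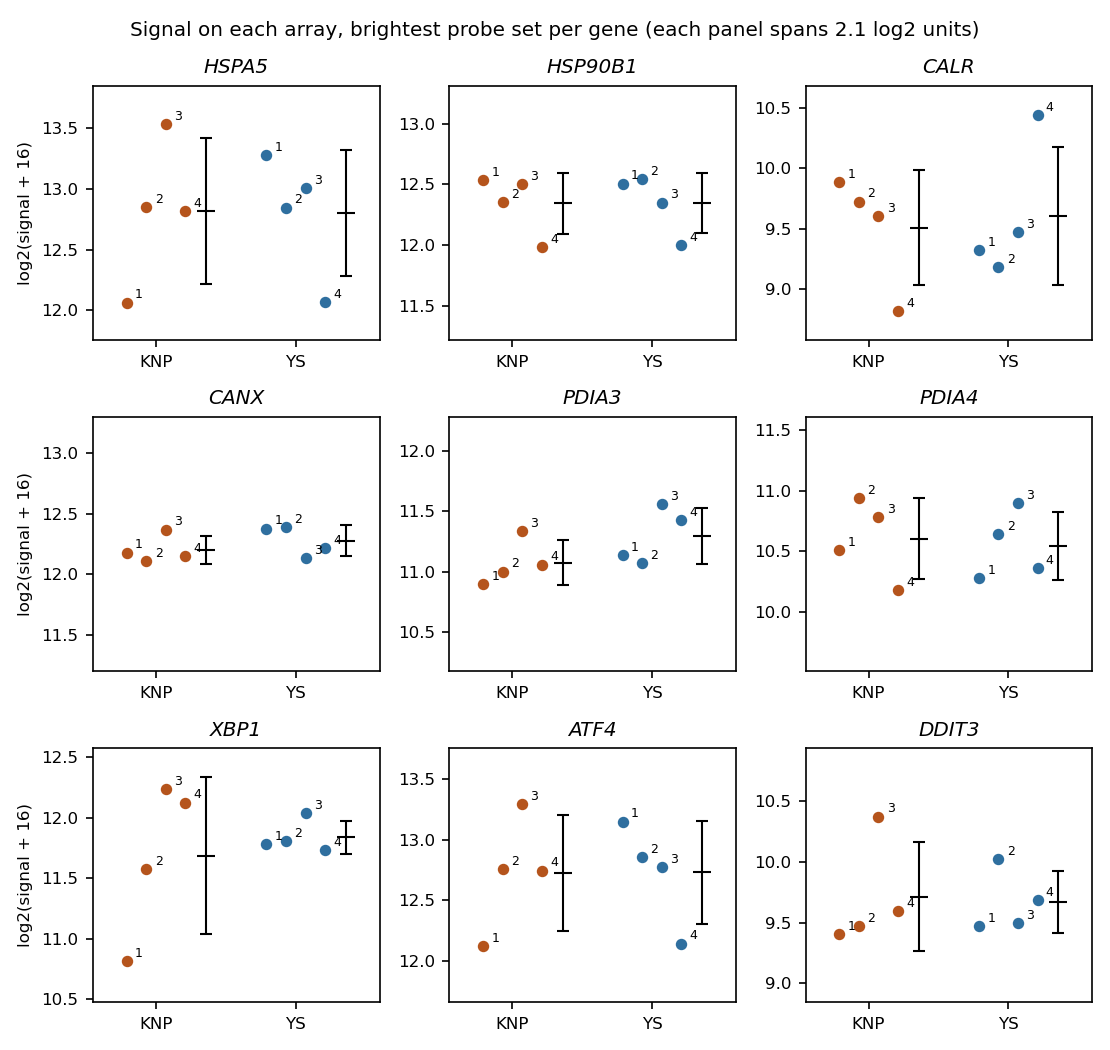
Log2(signal + 16) of the brightest probe set of each of the 9 genes on every array, KNP left and YS right, with the replicate number at each point and the mean ± SD of 4 arrays as a black bar. The panels have the same height in log2 units but different starting levels. HSPA5 and ATF4 share their 2 highest and their 2 lowest arrays, CANX is nearly level, and XBP1 spreads in KNP.

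The 9 brightest probe sets spanned from 0.28 (CANX) to 1.61 (CALR) log2 units over the 8 arrays, while their largest breed difference was -0.23 (PDIA3). Of these 9, 4 were highest on KNP replicate 3 and 5 were lowest on KNP replicate 1, the arrays with the smallest and the largest 3′/5′ difference. The share of all probe sets with their extremes on these arrays was not counted, so these counts cannot be called a trait of the set. HSPA5 was set against the other 8 genes over the 8 arrays, a comparison chosen with earlier results of these data known.

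ATF4 tracked HSPA5 closely on its brightest probe set, Ssc.11072.1.S1_at. Pearson's r was 0.99 (exact permutation p = 0.00042, adjusted p = 0.0034 over 8 relations, two-sided) and Spearman's rho was 0.93 (exact permutation p = 0.0022, adjusted p = 0.018). KNP replicate 1 and YS replicate 4, the arrays farthest from the HSPA5 median and of highest median signal, lay apart from the rest. Without them r was 0.95 over the other 6 arrays. It was 0.99 after each breed mean was subtracted, 0.98 after the fit on the 3′/5′ difference was subtracted, and 0.99 with either quantile normalization or median centring. The dimmer Ssc.11072.2.A1_at had an r of 0.25 with the brightest ATF4 probe set and was not set against HSPA5. Among 6005 genes ranked by r with HSPA5, ATF4 was number 1, and with quantile normalization number 2. Over 5997 genes the 5th and 95th percentiles of r with HSPA5 were -0.79 and 0.80. The permutation p-values treat the arrays as exchangeable and do not take in that spread.

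The other 7 genes did not follow HSPA5 to that degree. XBP1 had an r of 0.70 (exact permutation p = 0.047, adjusted p = 0.19), and it was 0.44 over the 6 arrays and 0.33 after the fit on the 3′/5′ difference was subtracted. DDIT3 had an r of 0.46, CANX 0.46, HSP90B1 0.37, PDIA4 0.29 and PDIA3 0.22, with adjusted exact permutation p-values between 0.396 and 0.601. CALR had an r of -0.57 (adjusted exact permutation p = 0.37), and 0.41 over the 6 arrays, so its sign rested on KNP replicate 1 and YS replicate 4. For HSP90B1, CANX, PDIA3 and PDIA4 the sign of r depended on the scaling: it was -0.11, -0.089, -0.010 and -0.0035 with quantile normalization, and 0.80, 0.92, 0.81 and 0.74 with median centring. None of these 4 r values kept its sign across the scalings, and that of CALR was negative in each.

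XBP1 tracked the 3′/5′ difference of the arrays. Against it, its r was -0.90 (exact permutation p = 0.00030, adjusted p = 0.0027 over 9 relations, two-sided) and rho was -0.93 (exact permutation p = 0.0022, adjusted p = 0.020). Without KNP replicates 1 and 2, the arrays farthest from the median of that difference, r was -0.85. It was -0.85 with quantile normalization and -0.86 with median centring. The permutation p treats the arrays as exchangeable, but 1.32% of 6006 genes had a larger absolute r with that difference. HSPA5 and ATF4 had r values of -0.66 and -0.67 with it, each with an adjusted exact permutation p of 0.20. Without KNP replicates 1 and 2 these were -0.78 and -0.75, with quantile normalization -0.77 and -0.80, and with median centring -0.64 and -0.63. Over the 4 YS arrays alone they were -0.99 and -0.94, and that of XBP1 was -0.50, as descriptions. Over the 4 KNP arrays alone the order was the reverse, at -0.75 for HSPA5, -0.76 for ATF4 and -0.92 for XBP1. The part of RNA state in their own levels was not tested.

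**Figure D3:**
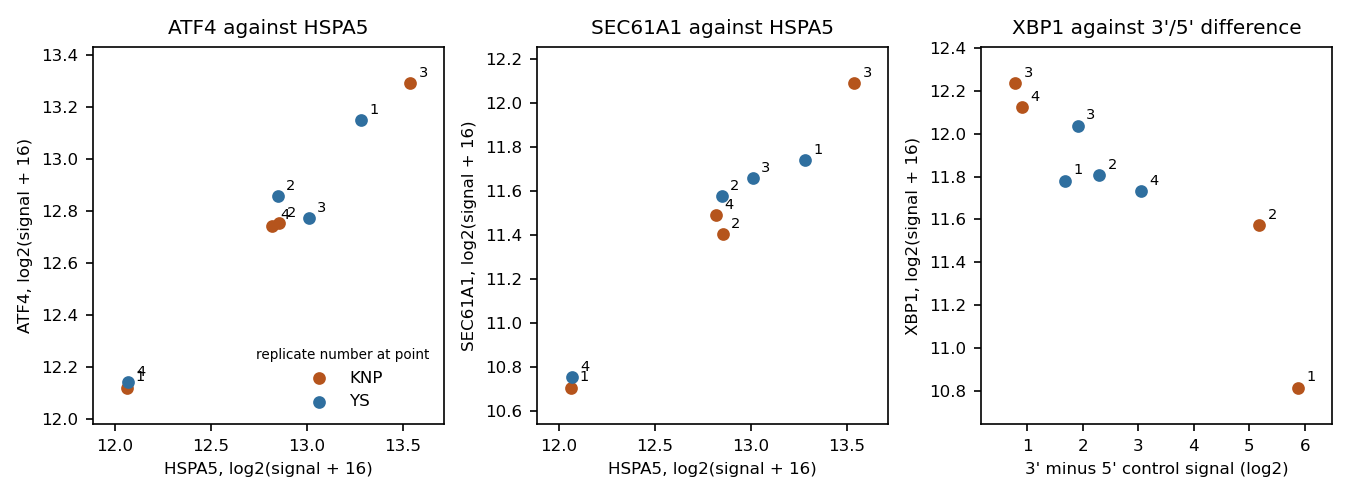
Left and middle, log2(signal + 16) of ATF4 and of SEC61A1 (vertical axes) against HSPA5 (horizontal axes) on the 8 arrays; right, XBP1 against the difference between 3′ and 5′ control probe sets (log2). Each gene is shown by its brightest probe set. Points carry the replicate number, orange for KNP and blue for YS. ATF4 and SEC61A1 lie higher where HSPA5 is higher in both breeds (r = 0.99 for each), and XBP1 lies lower where the 3′/5′ difference is larger (r = -0.90).

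Outside the 10 genes, the gene whose pattern over the 8 arrays was most like that of HSPA5 was SEC61A1, which encodes the pore through which new proteins enter the ER. Its r was 0.99, and 0.95 without KNP replicate 1 and YS replicate 4. It read 10.71, 11.40, 12.09 and 11.49 in KNP and 11.74, 11.58, 11.66 and 10.75 in YS. The next 4 were CCM2, RAC1, SCARB1 and DCTN1, with r values of 0.98, 0.97, 0.97 and 0.97. CCM2 is a scaffold of endothelial junctions, RAC1 a small GTPase of the actin cytoskeleton, SCARB1 the receptor for high-density lipoprotein and DCTN1 a subunit of dynactin. These r values are descriptions of 8 arrays that share their scaling and RNA state: 82 of 5997 genes had an r above 0.9, and the r of these 5 genes with the 3′/5′ difference lay between -0.77 and -0.66.

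The rest of the pathway was read through 8 lists, in which 110 genes were tested by their brightest probe set. None passed an adjusted p of 0.05 in limma, 1 had an unadjusted p under 0.05, and 2.35% of 6006 genes did. Of the 110, 49 were higher in KNP and 61 lower, with a median difference of -0.02, beside 0.01 over all genes, of which 51.8% were higher. KNP and YS did not overlap for 2 of the 110, where 2.08% of all genes did not. These were the signal peptidase subunit SEC11A, at 11.35 ± 0.08 in KNP against 11.18 ± 0.10 in YS (SD, n = 4), and SRP19 of the signal recognition particle, at 11.46 ± 0.05 against 11.31 ± 0.06.

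Of these 110 genes, 8 (7.27%) had an r above 0.8 with HSPA5 over the 8 arrays, beside 5.15% of 5997 genes. The median r with HSPA5 was 0.46 over 18 other chaperones, 0.05 over 12 oxidative folding genes, 0.43 over 12 genes of the glycoprotein cycle and 0.40 over 14 genes of ER-associated degradation. It was 0.56 over 5 sensors, 0.10 over 18 targets of ATF4 and CHOP, -0.04 over 22 translocon genes and 0.39 over 9 ER calcium genes, beside -0.04 over 5997 genes. Without KNP replicate 1 and YS replicate 4 these 8 medians were, in the same order, 0.08, -0.42, -0.07, 0.32, -0.34, -0.11, -0.13 and -0.07, and those of the other chaperones and of ER-associated degradation were the only ones above 0. The highest r of the 110 was that of SEC61A1 in the translocon list (0.99). Other single genes were chosen after their values were seen. AUP1, an adaptor of ER-associated degradation, had an r of 0.94 with HSPA5, and BCL2L11, a cell death gene activated by CHOP, had -0.97. Without KNP replicate 1 and YS replicate 4 these were 0.71 and -0.94. The BCL2L11 signal was dim, from 4.69 to 8.37, and exceeded the no-target controls in 2 KNP and 2 YS samples. MANF, a secreted factor induced under ER stress, had 0.78 and HYOU1, the large ER chaperone that resets HSPA5, -0.09, which was 0.80 without KNP replicate 1 and YS replicate 4. These are descriptions over 8 arrays, and none was tested.

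Other ER chaperones and their partners were higher in KNP for 10 of 18 genes, with a median of 0.09. Without KNP replicate 1 this was 7 of 18 (-0.048) and without YS replicate 4 it was 8 of 18 (-0.044). DNAJB9 (ERdj4), a co-chaperone of HSPA5 and target of XBP1, averaged 9.22 ± 0.53 (SD) on the 4 KNP arrays and 9.82 ± 0.66 on the 4 YS arrays. DNAJC3 (p58IPK), another HSPA5 partner, was at 8.17 ± 0.33 against 7.66 ± 0.55, and SDF2 at 9.92 ± 0.25 against 10.32 ± 0.16. These values did not pass the test, and the 2 HSPA5 partners differed in opposite directions. Of the oxidative folding genes 6 were higher and 6 lower (median -0.02, and 0.01 with quantile normalization or 0.02 without YS replicate 3). ERO1A, the oxidase that recharges disulfide isomerases, was at 6.73 ± 0.77 against 7.36 ± 0.37, and exceeded the no-target controls in 1 KNP and 3 YS samples. QSOX1, a sulfhydryl oxidase, was at 9.22 ± 0.79 against 8.43 ± 0.95, and the membrane thioredoxin TMX1 at 10.49 ± 0.26 against 10.88 ± 0.11.

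Genes of the glycoprotein folding cycle, which trim and read the sugars that CALR and CANX bind, comprised 6 higher and 6 lower in KNP, and their median was 0.0077. Without YS replicate 4 this was 3 higher and 9 lower (-0.057, with 2 at an unadjusted p under 0.05 in limma), without KNP replicate 4 it was 4 and 8 (-0.073), and the median was also negative without KNP replicate 1, 2 or 3 and with the 3′/5′ covariate. The glucosidase subunit GANAB averaged 9.96 ± 0.39 (SD) on the 4 KNP arrays and 10.43 ± 0.58 on the 4 YS arrays. The oligosaccharyltransferase subunits DDOST and RPN1 differed in opposite directions, at 10.48 ± 0.39 against 10.82 ± 0.55 and at 10.77 ± 0.37 against 10.43 ± 0.61. Genes of ER-associated degradation, which carry misfolded proteins to the proteasome, were higher for 8 of 14 with a median of 0.03, which turned to -0.028 when KNP replicate 3 was left out, to -0.0091 when it was KNP replicate 4 and to -0.084 when it was YS replicate 4. The ubiquitin-conjugating enzyme UBE2G2 was at 8.37 ± 0.40 against 8.90 ± 0.18. Its relative UBE2J2 was at 9.26 ± 0.12 against 9.07 ± 0.16, and UBXN4, which ties the VCP ATPase to the ER, at 11.64 ± 0.23 against 11.34 ± 0.32.

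Sensors and transducers were measured for 5 genes, of which 3 were higher and 2 lower in KNP (median 0.14). Without YS replicate 1 or YS replicate 3 this was 2 and 3 (-0.087 and -0.17). CREB3L2, a membrane-bound transcription factor cleaved under ER stress, averaged 8.89 ± 1.88 (SD) over 4 KNP arrays and 9.58 ± 0.22 over 4 YS arrays. It read 6.60 and 8.09 in KNP replicates 1 and 2, against 10.51 and 10.35 in KNP replicates 3 and 4, so its low values fell on the KNP arrays with the large 3′/5′ difference, and their part was not tested. TMBIM6, an inhibitor of IRE1 signalling and cell death, was at 13.07 ± 0.34 against 13.29 ± 0.34. EIF2S1, the initiation factor subunit that PERK phosphorylates, was at 11.62 ± 0.22 against 11.33 ± 0.24.

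Targets of ATF4 and CHOP were higher in KNP for 7 of 18 genes, with a median of -0.03, and for 10 of 18 with quantile normalization. With KNP replicate 1 or 2, or YS replicate 1 or 2, left out, 9 to 11 of 18 were higher and the median was between 0.0059 and 0.017. ATF3, a stress-induced repressor, gave the only unadjusted p under 0.05 of the 110 genes (0.044, adjusted p = 0.9998, limma). It was at 9.43, 10.39, 10.25 and 10.87 in KNP and 8.93, 9.61, 9.25 and 9.84 in YS, and 3 of 4 KNP arrays lay above all YS arrays. The serine synthesis genes PHGDH and PSAT1 were at 8.78 ± 0.96 against 9.66 ± 0.22 and at 13.91 ± 0.28 against 14.32 ± 0.21 (SD, n = 4). Thus ATF3 and the serine synthesis genes had opposite signs, and none passed.

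The translocon and signal peptidase genes, which bring proteins into the ER and cut off their signal peptides, were lower in KNP for 14 of 22, with a median of -0.02, and for 12 of 22 with quantile normalization or median centring. The majority turned, to 9 or 10 of 22 lower with medians from 0.040 to 0.066, without KNP replicate 1 or YS replicate 1, 2 or 3, and to 10 of 22 (0.031) with the 3′/5′ covariate. SEC61G, the small subunit of the pore, averaged 12.03 ± 0.40 (SD) over 4 KNP arrays and 11.63 ± 0.34 over 4 YS arrays, while SEC61A1, its large subunit, was at 11.42 ± 0.57 and 11.43 ± 0.46. SSR3, of the translocon-associated complex, was at 11.37 ± 0.42 against 10.98 ± 0.18, and SPCS1 of the signal peptidase at 11.44 ± 0.40 against 11.94 ± 0.32. ER calcium genes were lower in KNP for 8 of 9, with a median of -0.26, and 0 of 9 passed or had an unadjusted p under 0.05. Over all genes 2894 of 6006 were lower. With any 1 array left out, 7 or 8 of the 9 calcium genes were lower, with medians from -0.35 to -0.18. It was 9 of 11 (-0.15) without the filter, 7 of 9 (-0.22) with the 3′/5′ covariate and 9 of 9 (-0.25) with quantile normalization. The calcium pump ATP2A2 was at 10.52 ± 0.22 against 10.79 ± 0.29, and the calcium-binding proteins RCN2 and CALU at 10.42 ± 0.10 against 10.68 ± 0.22 and 11.23 ± 0.41 against 11.60 ± 0.52. Fibroblast markers were lower in KNP too (6 of 6), and their part in the calcium genes was not tested.

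**Figure D4:**
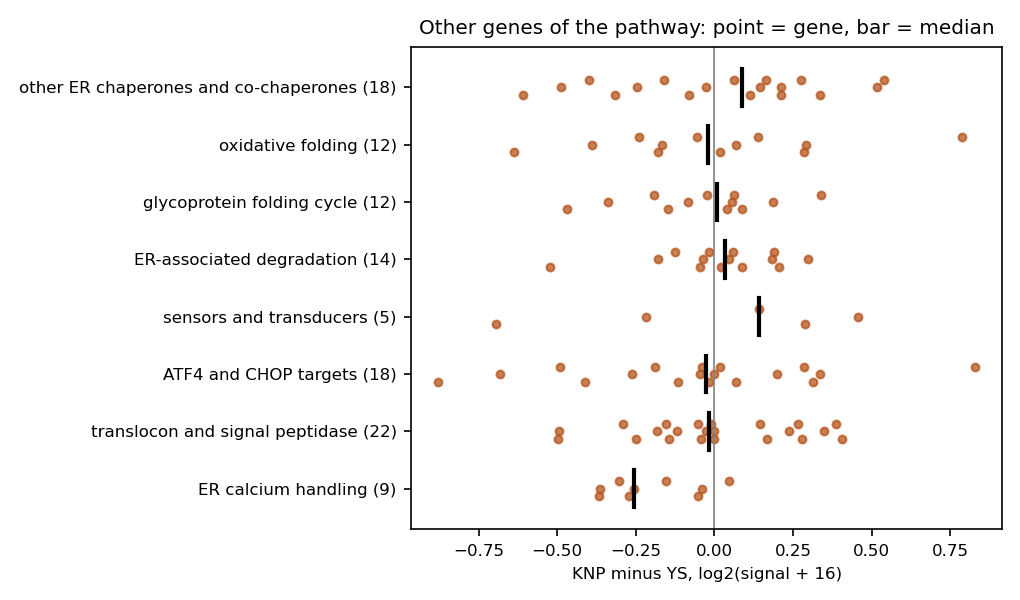
Difference between breeds (KNP minus YS, log2(signal + 16), horizontal axis) of the 110 other pathway genes, 1 point per gene, by list with the number of genes in brackets, and the list's median as a black bar. Points lie on both sides of 0 in every list, and the median lies farthest from 0 for the ER calcium genes (-0.26).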

How the data were processed

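Expression was measured on 8 arrays. For each of 24123 probe sets the authors deposited a linear intensity from every array, with a mean, trimmed by 2% at each end, of 500.1 on every array, as read from the values. The sources used here do not give the summarisation algorithm, and detection calls were not used. That scaling was kept, and median signals still differed between arrays.

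Values were taken as log2(signal + 16). The 124 control probe sets and the 25% of the others with the lowest mean over 8 arrays were left out, which left 17999. The comparison of breeds used R 4.3.3 and its package limma 3.58.1 (lmFit and eBayes without covariates, two-sided), tested on simulated data first, with Benjamini-Hochberg adjustment and a threshold of 0.05. The array number, 4 per breed, limits the precision.

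Symbols came from the platform's annotation, which can be old: 10069 probe sets had 1 symbol, 198 several and 13732 none. All 20 probe sets of the set kept their symbol when matched through the Entrez identifier to RefSeq (Sscrofa11.1). Probe sets have no positions and no sequences in the sources used here, so none are printed. A gene of a list is its tested probe set with the highest mean.

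The genes, lists and tests were chosen with earlier results of these data known. All probe sets of the 10 genes are named, with the 3 genes of smallest p from each list and the 5 genes most like HSPA5. SEC11A, SRP19, AUP1, BCL2L11, MANF, HYOU1 and, among the markers, JCHAIN, CD79B and TNFRSF17 were named after their values were seen. Same-numbered arrays did not deviate together, so replicate numbers were not treated as pairs.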

Additional observations from a re-analysis of the deposited data

Results flagged for a closer look

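Groups of 4 arrays were checked for a value whose gap to its nearest neighbour was too large a part of the range by Dixon's 95% criterion. Of 100 groups checked, 5 held such a value, where chance gives about 1 in 20. CANX probe set Ssc.13502.1.S1_at was at 5.32 on KNP replicate 3, below the 7.11 to 7.45 of the rest of that breed. GANAB was at 10.54 on KNP replicate 2, above 9.71 to 9.84. DDOST was at 9.90 on KNP replicate 1, below 10.65 to 10.70. UBXN4 was at 10.87 on YS replicate 4, below 11.48 to 11.53, and SEC61A1 at 10.75 on the same array, below 11.58 to 11.74. Of the 4 low values, 3 fell on KNP replicate 1 or YS replicate 4, arrays with a large 3′/5′ difference, whose part was not tested.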

How the results depend on the processing

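In each of 16 alternatives 0 member probe sets passed an adjusted p of 0.05 and 0 had an unadjusted p under 0.05, and 0 of all probe sets passed. The alternatives were no filter, pseudocounts of 1 and 64, quantile normalization, median centring, limma's trended, robust prior variance (with statmod 1.5.0), the replicate number as a block, the 3′/5′ difference as a covariate, and each array left out. The replicate block left the median member difference at 0.0071, and same-numbered arrays had correlations of deviations from -0.19 to 0.13. With 1 array left out that median ran from -0.13 to 0.11. The alternative without 3 arrays and those for the correlations were chosen after seeing the data.

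Differences near 0 changed sign. The brightest ATF4 probe set went from -0.0028 to 0.0081 with quantile normalization, 0.0031 with median centring and 0.15 with the 3′/5′ covariate, and XBP1 from -0.15 to 0.054 with that covariate. The r of PDIA3 with HSPA5 became -0.19 after the 3′/5′ fit was subtracted, and with quantile normalization r was -0.11 for HSP90B1, -0.089 for CANX, -0.010 for PDIA3 and -0.0035 for PDIA4. With 1 array left out in turn, the difference of the brightest probe set ran from -0.23 to 0.27 for HSPA5, -0.12 to 0.11 for HSP90B1, -0.24 to 0.18 for CALR, -0.053 to 0.20 for PDIA4, -0.33 to 0.14 for XBP1, -0.20 to 0.20 for ATF4 and -0.18 to 0.16 for DDIT3, so the sign of these 7 rested on single arrays. For CANX (-0.13 to -0.04) and PDIA3 (-0.31 to -0.14) it did not. Of the other probe sets, the difference ran from -0.026 to 0.21 for CANX Ssc.21107.2.S1_at, -0.041 to 0.95 for Ssc.21107.1.S1_at, -0.96 to 0.24 for Ssc.13502.1.S1_at, -0.53 to 0.10 for PDIA3 Ssc.1165.2.A1_at, -0.36 to 0.74 for PDIA4 Ssc.8970.1.S1_at and -0.091 to 0.28 for ATF4 Ssc.11072.2.A1_at.

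The count of pathway genes at an unadjusted p under 0.05, 1 in the fit reported, was 0 without the filter or with median centring, 2 with the trended, robust prior, with the replicate block or with each gene averaged over its probe sets, 4 with the 3′/5′ covariate, and 0 to 4 with 1 array left out. In all of these 0 pathway genes passed an adjusted p of 0.05. The cause of these changes was not tested. Signal near the no-target level limits 5 of the 20 probe sets, which were not above it on all 8 arrays.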
